A study of Mus musculus with 12 samples.

Results

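Wild-type mice of the SwissOF1 (OF1) and C57Bl/6j (C57) strains were compared through RNA of tissue labelled as substantia nigra pars compacta (SNpc). The comparison used 6 of the 12 libraries of the series, chosen by the genotype and strain that the sample labels give. The OF1 WT group is mice SW31, SW7 and SWG, and the C57 WT group is mice C5710, C572S and C5743. Each library came from 1 mouse, and all 6 are labelled male, 1 week of age and wild type for *Engrailed 1* (*En1*). The other 6 libraries are *En1* hemizygotes, 3 OF1-*En1*+/- and 3 C57-*En1*+/-. The question was which transcripts differ between the strains before any *En1* mutation, since the hemizygous phenotype is known to depend on the strain. The tissue was cut out by laser from stained sections. Below, 3 values of OF1 WT mice are in the order SW31, SW7 and SWG, of C57 WT mice in the order C5710, C572S and C5743, of OF1-*En1*+/- mice SW21, SW22 and SWB, and of C57-*En1*+/- mice C5713, C572 and C575.

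C57Bl/6j is an inbred strain and the source of the mouse reference genome, whereas OF1 is an outbred Swiss stock. The SNpc holds dopaminergic neurons that project to the striatum, beside GABAergic neurons, glia and vessels, and it borders the subthalamic nucleus and the ventral tegmental area. A processed pseudogene arises when the mRNA of a gene is copied back into the genome, so it lacks introns and can stay nearly identical to its parent gene. A short read from such a sequence can fit more than 1 annotated gene, and the quantifier must divide it between them. GRCm39 is the genome of C57BL/6J, and the reads of both strains were divided among transcripts of that genome.

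Reads were assigned to transcripts by Salmon, summed per gene and scaled by TMM, a trimmed mean that sets libraries of unequal depth to a common size. The result is called the normalized count here. OF1 WT libraries held 13538864 to 30927714 estimated reads and C57 WT libraries 61433970 to 168741283, so the C57 WT libraries were deeper in every case. Differences were tested by the quasi-likelihood test of edgeR with Benjamini-Hochberg adjustment over the 18017 genes whose normalized count averaged 10 or more, and a gene with an adjusted p below 0.05 is said to be called. Log2 differences are OF1 minus C57 throughout. With 3 mice against 3, an exact permutation test of a single gene cannot give a p below 0.10.

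The tissue label was checked against 23 transcripts of dopaminergic neurons. They were abundant in 1 of the 6 libraries. *Th*, tyrosine hydroxylase, the rate-limiting enzyme of dopamine synthesis, had normalized counts of 44.8, 1022 and 151 in OF1 WT mice, against 663, 121821 and 1447 in C57 WT mice. *Slc6a3*, the dopamine transporter, had 16.5, 104 and 28.9 in OF1 WT mice, against 229, 350647 and 3230 in C57 WT mice. Thus C572S alone had both transcripts at a high level, and *En2* and *Pitx3* were at 0 in all 3 OF1 WT mice. In the libraries other than C572S, the levels of *Th* and *Slc6a3* do not bear out the label SNpc. The summed level of the 23 transcripts was 10890 to 17520 in OF1 WT mice and 20230, 21090 and 713500 in C57 WT mice. Transcripts of subthalamic and posterior hypothalamic neurons summed to 36340, 133500 and 149900 in OF1 WT mice and 19160, 42830 and 132400 in C57 WT mice, in rising order within each group. In such bulk tissue, fewer cells of a type and less RNA per cell cannot be told apart, and the part of the dissected area in the strain differences was not tested beyond a fit with both marker levels as covariates.

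Of the 18017 genes tested, 185 were called (1.03%), 138 of them higher in OF1 WT (0.766%) and 47 lower (0.261%). These calls were unevenly spread over kinds of gene. Genes were therefore split by how much of their sequence is found in transcripts of other genes, including genes that overlap them. A gene annotated as protein-coding or lncRNA counts as single-copy when under 50% of its distinct 31-base words (31-mers) occur in transcripts of another gene, and as a near-identical copy otherwise. The copies so defined also hold parent genes, such as *Kpna2*, and transcripts that overlap the gene they resemble, such as *Rps18-ps6*. Pseudogenes are taken from the annotation. Of 16110 single-copy genes, 70 (0.435%) were called, 33 higher and 37 lower. Of 502 pseudogenes, 82 (16.3%) were called, 79 of them higher in OF1 WT. Of 934 near-identical copies, 30 (3.21%) were called, 24 of them higher. The remaining 3 calls are the mitochondrial tRNA gene *mt-Ts1* and the T cell receptor segments *Trav3-3* and *Trav15n-1*.

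The median log2 difference was -0.06 over single-copy genes, 0.30 over pseudogenes and -0.05 over all genes tested. Of the 18017 genes tested, 8152 had a positive difference and 1554 an unadjusted p below 0.05 in edgeR, the base for such counts in lists below. Reads assigned to pseudogenes made up 1.04 to 1.32% of each OF1 WT library and 0.451 to 0.526% of each C57 WT library. The groups did not overlap in 184 of the 185 called genes, beside 2663 of all tested genes (14.8%). With DESeq2 on the same counts, 456 genes were called (2.53%), among them 252 single-copy genes and 188 pseudogenes and copies. The count of single-copy calls leaned on each of several mice: it was 42 without SWG, 44 without C5710, 42 without C572S and 43 without C5743.

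Ordination was run for both kinds of sequence apart. Over the 500 most variable pseudogenes and copies, the first principal component held 60.2% of the variance and placed all OF1 WT mice on one side (42.4 to 50.9) and all C57 WT mice on the other (-48.7 to -43.3). Over the 500 most variable single-copy genes, the first component held 35.8% and the strains were interleaved, with OF1 WT mice at 41.4, -53.3 and 43.9 and C57 WT mice at -22.2, -32.2 and 22.5.

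**Figure D1:**
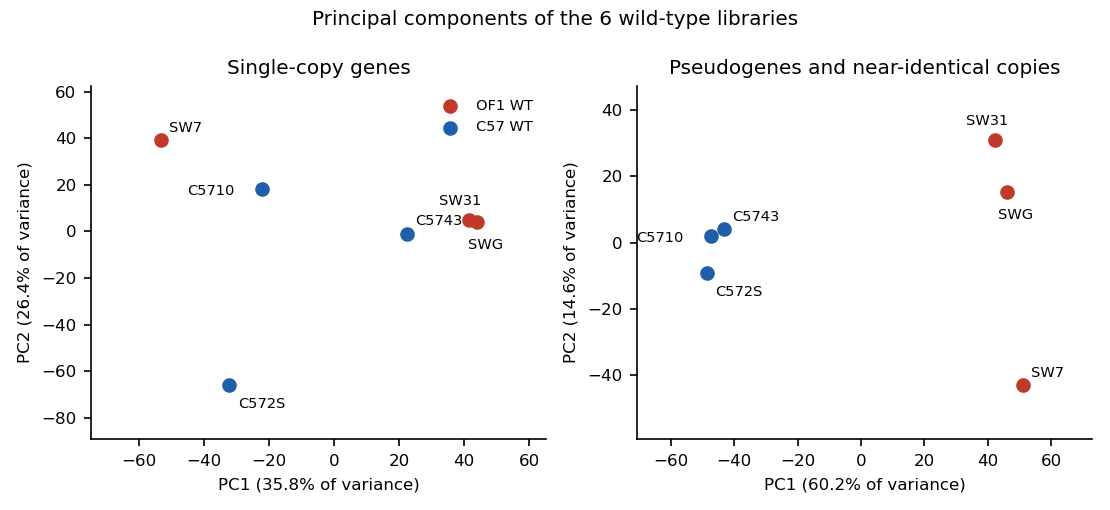
The first 2 principal components of the 6 wild-type libraries, computed from the 500 most variable single-copy genes (left) and from the 500 most variable pseudogenes and near-identical copies (right), with the share of variance on each axis. Each point is 1 mouse, and the strains part on the first component (60.2%) only in the right panel.

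Among single-copy protein-coding genes, 30 were higher in OF1 WT. The 12 with the smallest p include genes of chromatin, RNA binding, phosphoinositide and G protein signalling and the cytoskeleton. *Supt16* (chromosome 14, 52397870 to 52434920), the large subunit of the histone chaperone FACT, had normalized counts of 3344, 1791 and 4140 in OF1 WT mice, against 333, 271 and 257 in C57 WT mice. The lowest OF1 WT mouse was thus far above the highest C57 WT mouse, and the difference was 10.8-fold (log2 3.43, SE 0.29, adjusted p = 4.11e-05). Exons of *Supt16* overlap those of *Rpgrip1*, and the libraries do not record strand. *Rbm45* (chromosome 2, 76200272 to 76219904), an RNA-binding protein of the nervous system, had 1246, 1063 and 1400 in OF1 WT mice, against 71.9, 56.3 and 110 in C57 WT mice (log2 3.95, SE 0.34, adjusted p = 4.28e-05). It overlaps no other annotated exon, and its 15.5-fold difference was the larger of these 2.

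*Wdfy1* (chromosome 1, 79679017 to 79753860), an endosomal protein that links phosphoinositide binding to toll-like receptor signalling, had 4408, 3961 and 4973 in OF1 WT mice, against 645, 788 and 870 in C57 WT mice (log2 2.53, SE 0.28, adjusted p = 0.000391). *Inpp4a* (chromosome 1), a phosphatase that removes a phosphate from phosphoinositides and that striatal neurons of mice need to survive, had 7065, 2600 and 4072 in OF1 WT mice, against 494, 481 and 556 in C57 WT mice (log2 3.16). *Hebp1* (chromosome 6), a haem-binding protein, had 434, 1001 and 518 in OF1 WT mice, against 33.1, 23.2 and 32.5 in C57 WT mice (log2 4.45), the largest fold of the 12 at 21.9. Within OF1 WT these 3 genes differed in spread, from a narrow range in *Wdfy1* to the wide one of *Inpp4a*, where SW31 was the highest mouse. *Gnb1* (chromosome 4), a beta subunit of heterotrimeric G proteins and the most abundant of the 12, had 10495, 8798 and 9388 in OF1 WT mice, against 1928, 3006 and 2608 in C57 WT mice (log2 1.93). *Tbrg4*, a regulator of mitochondrial RNA, averaged 585 ± 66.4 in OF1 WT mice, against 123 ± 3.95 in C57 WT mice (SD, n = 3 each), and *Cap1*, which binds actin monomers, averaged 2549 ± 291 and 660 ± 17.9 in the same order.

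The rest of the 12 differed by less or from a wider spread. *Prune2* had 2758, 1376 and 2447 in OF1 WT mice, against 217, 363 and 122 in C57 WT mice (log2 3.23). *Rpa3*, the small subunit of the single-stranded DNA-binding complex RPA, had 892, 1128 and 840 in OF1 WT mice, against 249, 231 and 340 in C57 WT mice (log2 1.80). *Fam32a* had 5776, 5863 and 6641 in OF1 WT mice, against 2994, 3037 and 2642 in C57 WT mice, the smallest difference of the 12 (2.11-fold, adjusted p = 0.0541 with marker covariates). *Hhipl1*, a relative of the hedgehog-interacting protein, averaged 927 ± 208 in OF1 WT mice, against 249 ± 3.39 in C57 WT mice. Adjusted p of *Rpa3* was 0.00709 and became 0.0531 without C5710.

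**Figure D2:**
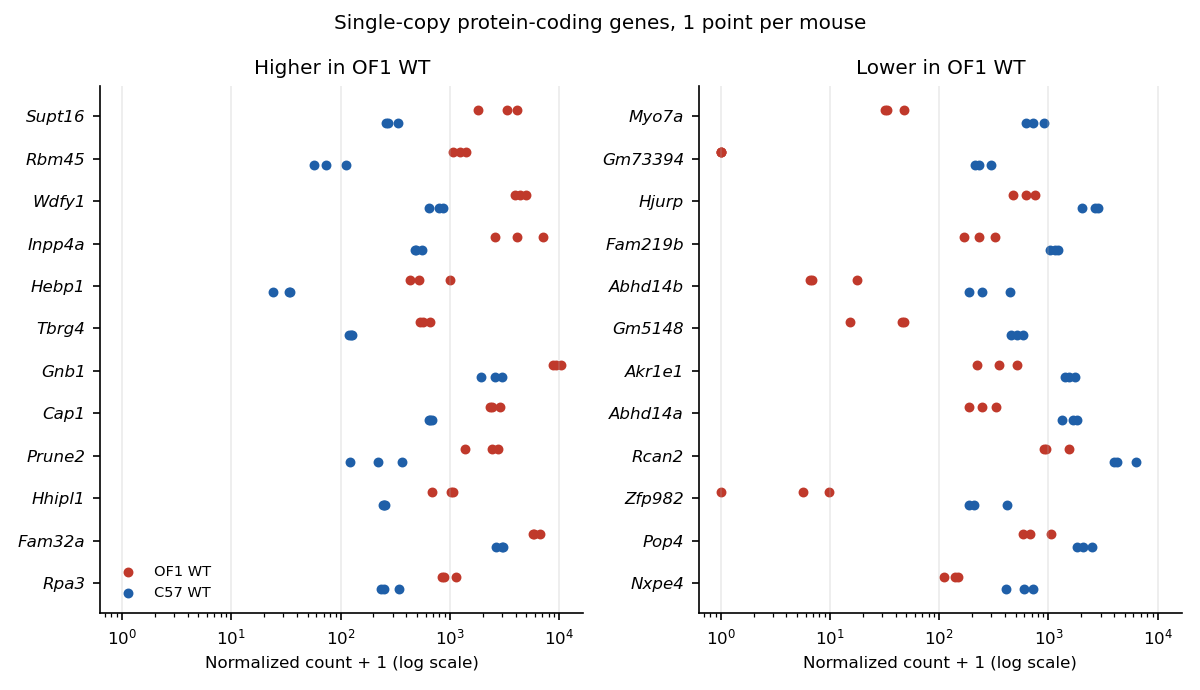
Normalized counts plus 1, on a log axis, of the 12 single-copy protein-coding genes with the smallest p that were higher in OF1 WT (left) and of the 12 that were lower (right). Each point is 1 mouse, OF1 WT drawn above C57 WT. Only genes in which the 3 OF1 WT points lie apart from the 3 C57 WT points could enter, so this separation was set by the choice.

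As many single-copy protein-coding genes, 30, were lower in OF1 WT. *Myo7a* (chromosome 7, 97699069 to 97768734), an unconventional myosin known from the hair cells of the inner ear, had 30.7, 46.8 and 32.2 in OF1 WT mice, against 722, 908 and 620 in C57 WT mice, 20.3-fold lower (log2 -4.35, SE 0.39, adjusted p = 6.25e-05). *Abhd14b* and *Abhd14a*, alpha/beta-hydrolase genes that overlap on chromosome 9, were both lower. *Abhd14b* had 16.5, 5.85 and 5.55 in OF1 WT mice, against 444, 244 and 184 in C57 WT mice (log2 -5.04), and *Abhd14a* had 243, 329 and 188 in OF1 WT mice, against 1685, 1317 and 1807 in C57 WT mice (log2 -2.66). *Rcan2* (chromosome 17), an inhibitor of the phosphatase calcineurin, had 918, 1533 and 946 in OF1 WT mice, against 3979, 6385 and 4270 in C57 WT mice (log2 -2.11, adjusted p = 0.00809, and 0.0607 without SWG). *Hjurp* (chromosome 1), the chaperone of the centromeric histone, had 474, 623 and 754 in OF1 WT mice, against 2639, 2026 and 2838 in C57 WT mice (log2 -2.02). It overlaps *Mroh2a*, and with offsets for transcript length its adjusted p was 0.0975.

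*Zfp982*, a zinc finger gene in a cluster of relatives on chromosome 4, had 4.72, 0 and 8.88 in OF1 WT mice, against 209, 414 and 186 in C57 WT mice (log2 -5.86), and its adjusted p was 0.0786 when only the wild-type libraries were fitted. *Gm5148* and *Fam219b*, whose roles are not described here, had log2 differences of -3.85 and -2.23. *Akr1e1*, an aldo-keto reductase, averaged 361 ± 145 in OF1 WT mice, against 1574 ± 169 in C57 WT mice, and its adjusted p was 0.0599 with offsets for transcript length. *Pop4*, a protein subunit of RNase P and RNase MRP, averaged 772 ± 245 and 2135 ± 361 in the same order. *Nxpe4* had 139, 110 and 147 in OF1 WT mice, against 717, 411 and 597 in C57 WT mice. *Pop4* was no longer called without SWG, without C5743 or with only the wild-type libraries (adjusted p = 0.0648 to 0.0997), nor *Nxpe4* without SW7, SWG or C5710 (adjusted p up to 0.0579).

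Of the single-copy lncRNA genes, 1580 were tested and 10 called, 3 higher and 7 lower. ENSMUSG00000121845 (chromosome 7) had 111, 296 and 226 in OF1 WT mice, against 0, 0.552 and 1.23 in C57 WT mice (log2 8.11, adjusted p = 0.00175). It overlaps exons of *Gm6916*, a called pseudogene, and shares 33.7% of its 31-mers with other genes. The sum of both remained higher (log2 8.02, adjusted p = 0.00308 in edgeR refitted to sums). *Gm64819* (chromosome 17) averaged 1059 ± 106 in OF1 WT mice, against 238 ± 22.5 in C57 WT mice, and *Gm74511* (chromosome 11) 2358 ± 643 and 690 ± 232. *Gm64819* shares 24.3% of its 31-mers with *Pisd-ps2* and *Gm74511* 29.7% with *Pisd-ps1*, pseudogenes of *Pisd*, a phosphatidylserine decarboxylase of mitochondria, which was itself higher in OF1 WT (log2 1.25), and *Gm74511* lost its call in 5 of the 6 fits that leave out 1 mouse (adjusted p up to 0.129). *Gm26782* (chromosome 14) had 175, 195 and 183 in OF1 WT mice, against 1417, 2026 and 1847 in C57 WT mice (log2 -3.26, SE 0.28, adjusted p = 4.28e-05). *Gm43305* on that chromosome was also lower (log2 -2.89). *Gm26782* and *Gm43305* share 34.73% and 22.65% of their 31-mers with other genes. Lower too were *C920006O11Rik* on chromosome 9 (log2 -4.23, adjusted p = 0.0949 with only the wild-type libraries) and *Gm13112* on chromosome 4 (log2 -2.23). *Gm13112* was not called without SW7, SWG, C5710 or C5743, nor with offsets for transcript length (adjusted p = 0.0532 to 0.281).

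Among the 70 single-copy genes called, 7 were at 0 in all 3 mice of a strain. They fall outside the rule by which genes are named, except *Gm73394*, and were taken up after their values were seen. A fold is then a lower bound, taken against 3 counts summed over the 3 mice at 0, and it reflects counting error alone. *Gm73394* (chromosome 11) was at 0 in OF1 WT mice, against 210, 295 and 228 in C57 WT mice, at least 178-fold lower. *Apoa2*, an apolipoprotein of HDL, was at 0 in OF1 WT mice, against 70.1, 108 and 69.7 in C57 WT mice, at least 60.1-fold lower. *Mmel1*, a neutral endopeptidase related to neprilysin, was at 0 in OF1 WT mice, against 59.2, 72.4 and 154 in C57 WT mice. Low counts stand behind the last of this kind, *Ang*, the ribonuclease angiogenin, at 0 in OF1 WT mice and 23.4 to 29.3 in C57 WT mice.

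In the opposite direction, *Ccnb1ip1*, a ubiquitin ligase of meiotic crossing-over, had 70.8, 66.6 and 40.0 in OF1 WT mice and 0 in C57 WT mice, at least 177-fold higher. *Serpina1b*, an alpha-1-antitrypsin gene, had 80.2, 97.0 and 8.88 in OF1 WT mice and 0 in C57 WT mice. *Serpina3m*, of a neighbouring cluster of protease inhibitors, had 11.8, 76.0 and 21.1 in OF1 WT mice and 0 in C57 WT mice. *Serpina1b*, *Ang*, *Mmel1* and *Serpina3m* share 35.0 to 41.6% of their 31-mers with other genes. Each of the 7 but *Serpina1b* overlaps exons of another gene. How reads were divided between these genes and the others was not tested. Leaving out 1 mouse at a time, *Serpina3m* and *Ang* were called in 0 of 6 edgeR fits, *Serpina1b* in 1 and *Ccnb1ip1* in 4, and *Gm73394*, *Apoa2* and *Mmel1* in all 6. All but *Mmel1* and *Ang* (5 of 7) were also at 0 in the 3 hemizygous mice of the same strain. *Mmel1* had 58.1, 170 and 54.0 in OF1-*En1*+/- mice and 28.8, 80.5 and 97.8 in C57-*En1*+/- mice, so it was detected in other mice of the OF1 strain. The difference between its strain effects in the 2 genotypes had an adjusted p of 0.614 (edgeR, Benjamini-Hochberg).

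**Figure D3:**
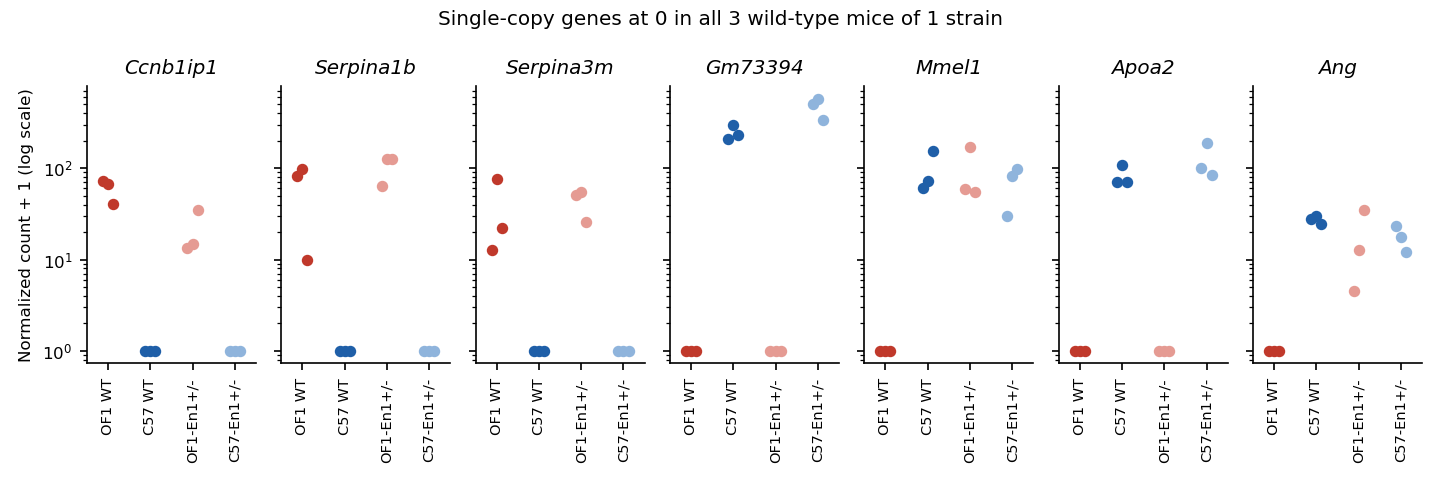
Normalized counts plus 1, on a log axis, of the 7 called single-copy genes that were at 0 in all wild-type mice of a strain, in the 4 groups of 3 mice. Each point is 1 mouse and a value of 1 stands for a count of 0. *Mmel1* and *Ang* were detected in the OF1-*En1*+/- mice, although they were at 0 in OF1 WT mice.

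Some called single-copy genes lay within 1 Mb of each other. Of the 70, 17 formed 13 pairs within 1 Mb, and 7 pairs had the same direction. Such pairs were not counted among all tested genes, so the count is a description only. *Abhd14a* with *Abhd14b*, and *Gm13112* with *Mmel1*, have a gap of 0 bases, and the libraries do not record strand. On chromosome 14, *Ccnb1ip1* was higher and *Gm26782* and *Ang* lower within 51026696 to 51341074. On chromosome 4, *Gm13112* and *Mmel1* were lower and *Gnb1* higher within 154948943 to 155644327. On chromosome 2, *Pla2g4e*, a phospholipase, and *Tmem87a* were both higher, with log2 differences of 2.59 and 4.01. *Serpina1b* and *Serpina3m* on chromosome 12 make a further pair, both higher, and *Apoa2* and *Ppox*, an enzyme of haem synthesis, on chromosome 1 a pair of lower genes.

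The calls not yet described span the cell. *Pnpla3*, a lipase of lipid droplets, averaged 480 ± 37.9 in OF1 WT mice, against 63.0 ± 31.9 in C57 WT mice. *Src*, a tyrosine kinase, had 642, 911 and 858 in OF1 WT mice, against 294, 362 and 307 in C57 WT mice (log2 1.32). *Timmdc1*, an assembly factor of respiratory complex I, had 394, 1043 and 1548 in OF1 WT mice, against 211, 156 and 237 in C57 WT mice (log2 2.31). On the lower side were motor genes of axonal transport: *Kif3a*, a kinesin subunit, had 5248, 5138 and 6686 in OF1 WT mice, against 10802, 10783 and 12977 in C57 WT mice (log2 -1.02), and *Kif5b*, a conventional kinesin heavy chain, had a log2 difference of -0.81, the smallest among the 185 called genes. *Sc5d*, a desaturase of cholesterol synthesis, averaged 1388 ± 288 in OF1 WT mice, against 3879 ± 1517 in C57 WT mice. *Btg2*, an early response gene that restrains proliferation, had 160, 91.2 and 76.6 in OF1 WT mice, against 641, 1148 and 369 in C57 WT mice (log2 -2.73). These genes were picked for their roles after the values were seen, and their calls leaned on single mice: of the 6 fits that leave out 1 mouse, *Src*, *Timmdc1*, *Kif5b* and *Btg2* were called in 1, *Kif3a* in 3, and *Pnpla3* and *Sc5d* in 4.

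How far single-copy genes are free of the sequences of others can be stated for all 70. Exons of 47 overlap another annotated gene and those of 23 do not. Of the 70, 51 share under 20% of their 31-mers with another gene, and 21 both share under 20% and overlap no other exon, among them *Rbm45*, *Myo7a*, *Inpp4a*, *Gnb1* and *Rcan2*. *Vcp*, an ATPase of protein quality control, shares 39.3% of its 31-mers with *Vcp-rs* and is counted here as single-copy, with 11675, 10934 and 17274 in OF1 WT mice, against 26133, 32174 and 32432 in C57 WT mice (log2 -1.19).

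The study names genes of antigen presentation and toll-like receptor 4 signalling for this comparison, and these were tabulated whether called or not. A list of such genes that the study chose on these samples is not independent evidence of its direction. *H2-Q4*, a major histocompatibility complex (MHC) class I gene, was called: it had 201, 228 and 346 in OF1 WT mice, against 3.05, 0.552 and 9.46 in C57 WT mice (log2 5.79, SE 0.89, adjusted p = 0.00592), and the adjusted p was 0.0557 when only the 6 wild-type libraries were fitted. It shares 53.4% of its 31-mers with other genes and so counts among the near-identical copies. *H2-T5* had 35.4, 16.4 and 43.3 in OF1 WT mice, against 0, 0.552 and 0.617 in C57 WT mice (adjusted p = 0.0515), and *H2-T15* had 51.9, 101 and 113 in OF1 WT mice, against 12.2, 17.7 and 19.7 in C57 WT mice (adjusted p = 0.264). The groups do not overlap in either gene, and DESeq2 called both (adjusted p = 0.000197 for *H2-T5* and 0.0257 for *H2-T15*).

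*H2-M5*, another class I gene, had 540, 152 and 177 in OF1 WT mice, against 59.7, 55.8 and 35.8 in C57 WT mice (adjusted p = 0.0969). *H2-Aa*, the alpha chain of a class II molecule, had 378, 79.5 and 476 in OF1 WT mice, against 13.9, 0 and 25.7 in C57 WT mice (log2 4.52, adjusted p = 0.118). *H2-T24* and *H2-T22* leaned the other way, with log2 differences of -3.50 (adjusted p = 0.0667) and -1.82 (adjusted p = 0.155). Of the 18 listed class I genes that were tested, *H2-Q4* alone was called by edgeR and 4 were called by DESeq2 (*H2-M5*, *H2-Q4*, *H2-T24* and *H2-T22*). In that list 8 had a positive difference, and the median was -0.08. It leaves out *H2-T5* and *H2-T15*, given above, which had positive differences and were called by DESeq2. Of 8 class II genes tested, 0 were called by edgeR, 1 reached an unadjusted p below 0.05 and 1, *H2-Aa*, was called by DESeq2.

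Of 16 genes of toll-like receptor 4 signalling, *Wdfy1* was called by edgeR and 3 by DESeq2 (*Wdfy1*, *Mfhas1* and *Pik3ap1*), and the median of the 16 was -0.34. *Mfhas1*, a regulator of toll-like receptor responses, had 606, 663 and 673 in OF1 WT mice, against 346, 258 and 272 in C57 WT mice, which do not overlap (log2 1.15, adjusted p = 0.0526). *Pik3ap1*, an adaptor of phosphoinositide 3-kinase, had 49.6, 23.4 and 69.9 in OF1 WT mice, against 140, 2415 and 288 in C57 WT mice (log2 -4.31, adjusted p = 0.131), and C572S held most of its reads. *Appl2* and *Hmgb1* had log2 differences of -1.15 and -0.50, with adjusted p of 0.209 and 0.355.

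*mt-Atp8*, a subunit of ATP synthase encoded by the mitochondrial genome, had 7527, 5953 and 9375 in OF1 WT mice, against 12918, 17467 and 19307 in C57 WT mice (log2 -1.12, SE 0.24, adjusted p = 0.0492). The groups do not overlap, but the adjusted p lay above the threshold in 11 alternatives, up to 0.160, among them 5 of the 6 that leave out 1 mouse. DESeq2 called it (adjusted p = 0.00107). It was the only one called of 13 mitochondrially encoded genes, whose median was 0.04 with 7 positive. In hemizygous mice *mt-Atp8* was called by edgeR in the same direction (log2 -1.38, adjusted p = 0.0152). The list differed there, with 0 of the 13 positive (median -0.90) and 4 called. Exons of *mt-Atp8* overlap those of *mt-Atp6*.

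Of the 23 transcripts of dopaminergic neurons, 0 were called by edgeR, 5 had an unadjusted p below 0.05 and 2 (*Gfra1* and *Slc18a2*) were called by DESeq2. Their median was -4.15, with 2 positive. C572S, with the summed level given above, is 1 of the 3 mice behind the C57 WT mean. In hemizygous mice the direction was the reverse, with 16 of the 23 positive (median 2.15) and 0 called by edgeR. There SW22, rich in these transcripts, is 1 of the 3 mice behind the OF1-*En1*+/- mean. *Aldh1a1* had 559, 410 and 446 in OF1 WT mice, against 323, 40354 and 293 in C57 WT mice, so that the 5 mice other than C572S lay between 293 and 559. *En1* itself had 9.44, 15.2 and 1.11 in OF1 WT mice, against 0.871, 1071 and 11.7 in C57 WT mice. *Foxa2* (adjusted p = 0.601), *Lmx1b* (0.995), *Kcnj6* (0.839), *Th* (0.606), *Slc6a3* (0.442), *Aldh1a1* (0.526), *En1* (0.675) and *En2* (0.658) were not called.

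Sequence variants of known effect distinguish C57BL/6 sublines from other mice, and 6 genes that carry them were listed, of which 3 were tested and 0 called by edgeR. *Gabra2*, a GABA-A receptor subunit with reduced expression in C57BL/6J, had 2975, 5771 and 3030 in OF1 WT mice, against 1371, 877 and 846 in C57 WT mice (log2 1.93, adjusted p = 0.0526), and it was called by DESeq2. *Nnt*, the mitochondrial transhydrogenase that C57BL/6J mice lack, had 21.2, 11.7 and 132 in OF1 WT mice, against 11.8, 82.8 and 37.0 in C57 WT mice (adjusted p = 0.972), low in both groups. *H2-Ea* and *Pla2g2a* were at 0 in all 12 libraries, and *Aanat* was under the filter.

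In the other lists of cell types and pathways, no gene passed the adjusted test of edgeR, whereas DESeq2 called *Nos1* (subthalamic), *Gata3* (GABAergic), *Calr* (antigen processing), *Gfra1* (neurotrophic factors and receptors), and *Gabra2* and *Gabra4* (receptors of transmitters). Of 13 genes of proliferating cells, 13 had a negative difference (median -1.17, against -0.05 over all tested genes). Of all 18017 genes tested, 8152 were positive and 1554 had an unadjusted p below 0.05 in edgeR. Of the 13, 0 were called by edgeR, 7 reached an unadjusted p below 0.05 and 1 (*Ccnb2*) was called by DESeq2. *Ccnb2*, a mitotic cyclin, had 73.1, 50.3 and 53.3 in OF1 WT mice, against 143, 230 and 224 in C57 WT mice (adjusted p = 0.0564). In hemizygous mice 12 of the 13 were negative too, with a median of -0.41. Of 34 genes of glutathione and mitochondrial NADPH metabolism, 29 had a positive difference (median 0.31) and 0 were called by edgeR or DESeq2, with 1 at an unadjusted p below 0.05, and 14 were positive in hemizygous mice. Of 13 oligodendrocyte genes, 10 were positive (median 0.71), with 0 called by either tool and 1 at an unadjusted p below 0.05, and their summed level was 21070 to 43400 in OF1 WT mice, against 13870 to 36120 in C57 WT mice. In hemizygous mice 5 of the 13 were positive (median -0.09). Microglial and endothelial genes had medians of 0.12 and -0.11, with 0 called by either tool and 1 and 0 at an unadjusted p below 0.05. Over the other cell type and pathway lists, medians ran from -0.73 (choroid plexus and ependyma) to 1.04 (cholinergic neurons).

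The differences in sequences that resemble other genes are described next. Of 112 called pseudogenes and near-identical copies, 103 were higher in OF1 WT and 9 lower. Called pseudogenes that were higher had a median of 215 in OF1 WT mice and 0.475 in C57 WT mice, beside medians of 966 in OF1 WT mice and 238 in C57 WT mice among single-copy genes that were higher. In 17 pseudogenes and 5 copies, all 3 C57 WT mice were at 0, and so were all 3 C57-*En1*+/- mice in 12 and 4 of them. For each of the 112, the gene with which it shares most 31-mers is called its partner. In 101 at least 20% of the 31-mers were found in the partner, in 78 at least 50%, and the median was 69.3%.

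How alike copy and partner are is shown by stretches of 100 coding bases, chosen because each holds at least 1 of the few positions at which the 2 coding sequences differ (in capitals, all other bases in lower case; GENCODE transcripts of GRCm39, written 5' to 3' along the transcript). *Kpna2rt* (chr17:90216979-90217078, minus strand) and *Kpna2* (chr11:106882059-106882158, minus strand), an importin that carries proteins into the nucleus, differ at 2 of 1587 coding bases (99.87% identical).
Kpna2rt: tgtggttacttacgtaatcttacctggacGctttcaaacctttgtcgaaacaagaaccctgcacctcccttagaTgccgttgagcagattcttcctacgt
Kpna2: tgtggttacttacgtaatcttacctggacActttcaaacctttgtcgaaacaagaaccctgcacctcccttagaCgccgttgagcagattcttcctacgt
*Gm15459* (chr5:5833437-5833536, minus strand) and *Hspa8* (chr9:40713238-40713337, plus strand), the constitutive heat shock chaperone Hsc70, differ at 5 of 1938 (99.74%).
Gm15459: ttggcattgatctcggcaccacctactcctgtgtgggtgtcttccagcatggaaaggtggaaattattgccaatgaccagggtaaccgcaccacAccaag
Hspa8: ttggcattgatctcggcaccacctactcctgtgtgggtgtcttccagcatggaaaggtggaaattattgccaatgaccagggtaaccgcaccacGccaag
*Atp6v0c-ps2* (chr6:37783100-37783199, plus strand) and *Atp6v0c* (chr17:24383757-24383856, minus strand), the proteolipid of the vacuolar proton pump, differ at 1 of 465 (99.78%).
Atp6v0c-ps2: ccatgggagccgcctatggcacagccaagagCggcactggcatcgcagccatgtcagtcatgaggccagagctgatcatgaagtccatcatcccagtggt
Atp6v0c: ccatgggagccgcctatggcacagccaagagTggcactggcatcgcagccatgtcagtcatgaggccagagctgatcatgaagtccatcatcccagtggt
*Rpl3-ps1* (chrX:13068814-13068913, plus strand) and *Rpl3* (chr15:79966684-79966783, minus strand), a protein of the large ribosomal subunit, differ at 2 of 1209 (99.83%).
Rpl3-ps1: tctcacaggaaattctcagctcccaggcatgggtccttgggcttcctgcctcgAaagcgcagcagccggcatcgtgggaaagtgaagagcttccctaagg
Rpl3: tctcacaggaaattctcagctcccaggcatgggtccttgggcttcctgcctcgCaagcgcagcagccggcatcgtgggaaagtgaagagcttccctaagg
Each of these 4 copies is annotated with 1 exon, whereas their partners are spliced genes on other chromosomes.

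In each of these 4 pairs the copy was called higher and the sum of copy and partner was not called. *Kpna2rt* had 3457, 3562 and 4404 in OF1 WT mice and 0 in all C57 WT mice, at least 11400-fold higher. *Kpna2* had 130, 43.3 and 87.7 in OF1 WT mice, against 3563, 5026 and 4771 in C57 WT mice (log2 -5.71, SE 0.42, adjusted p = 1.11e-05). The copy thus took 96.4, 98.8 and 98.0% of the reads of the pair in OF1 WT mice and 0% in C57 WT mice. Summed, the pair had 3592, 3603 and 4489 in OF1 WT mice, against 3584, 4988 and 4736 in C57 WT mice, which overlap (log2 -0.19, SE 0.23, adjusted p = 0.883 in edgeR refitted to the sums).

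*Gm15459* was the most abundant of the called copies, with 51222, 53584 and 65611 in OF1 WT mice, against 63.6, 24.9 and 71.4 in C57 WT mice (log2 10.04, SE 0.47, adjusted p = 3.22e-07). *Hspa8* had 71548, 80543 and 80470 in OF1 WT mice, against 110764, 150128 and 141753 in C57 WT mice (adjusted p = 0.065), and the sum of both differed by a log2 of 0.0061 (SE 0.18). *Atp6v0c-ps2* had 6838, 11237 and 12464 in OF1 WT mice and 0.871, 0 and 0.411 in C57 WT mice, 4 reads in all, whereas *Atp6v0c* had 49108, 58386 and 61459 in OF1 WT mice, against 47592, 60264 and 61244 in C57 WT mice. In that pair the copy took 12.2 to 16.9% of the reads in OF1 WT mice, and the sum differed by a log2 of 0.24 (adjusted p = 0.776). *Rpl3-ps1* took 56.1, 52.5 and 29.7% of the reads of its pair in OF1 WT mice and at most 0.0181% in C57 WT mice, and the sum differed by a log2 of 0.29 (adjusted p = 0.763).

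Other abundant pairs were described in the same way, of which *Hmga1b*, *Vcp-rs* and *Gm58349* were taken up after their values were seen. *Gm10039*, a copy of the ATP synthase gene *Atp5mc1*, took 11.5 to 19.6% of its pair in OF1 WT mice and at most 0.00879% in C57 WT mice. *Eno1b*, a copy of the enolase gene *Eno1*, took 43.2 to 45.1% in OF1 WT mice and 0.271 to 0.406% in C57 WT mice. *Hmga1b*, a copy of the chromatin protein gene *Hmga1*, took 77.3 to 78.9% in OF1 WT mice and 0 to 0.252% in C57 WT mice. *Vcp-rs* took 45.1 to 51.4% in OF1 WT mice and at most 0.0275% in C57 WT mice. The sum of *Vcp* and *Vcp-rs* had a log2 difference of -0.19 (adjusted p = 0.889), although *Vcp* alone was called lower. *Gm58349*, an lncRNA that shares 28.5% of its 31-mers with *Rps2*, a protein of the small ribosomal subunit, took 93.5 to 96.8% in OF1 WT mice and 1.16 to 1.76% in C57 WT mice.

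**Figure D4:**
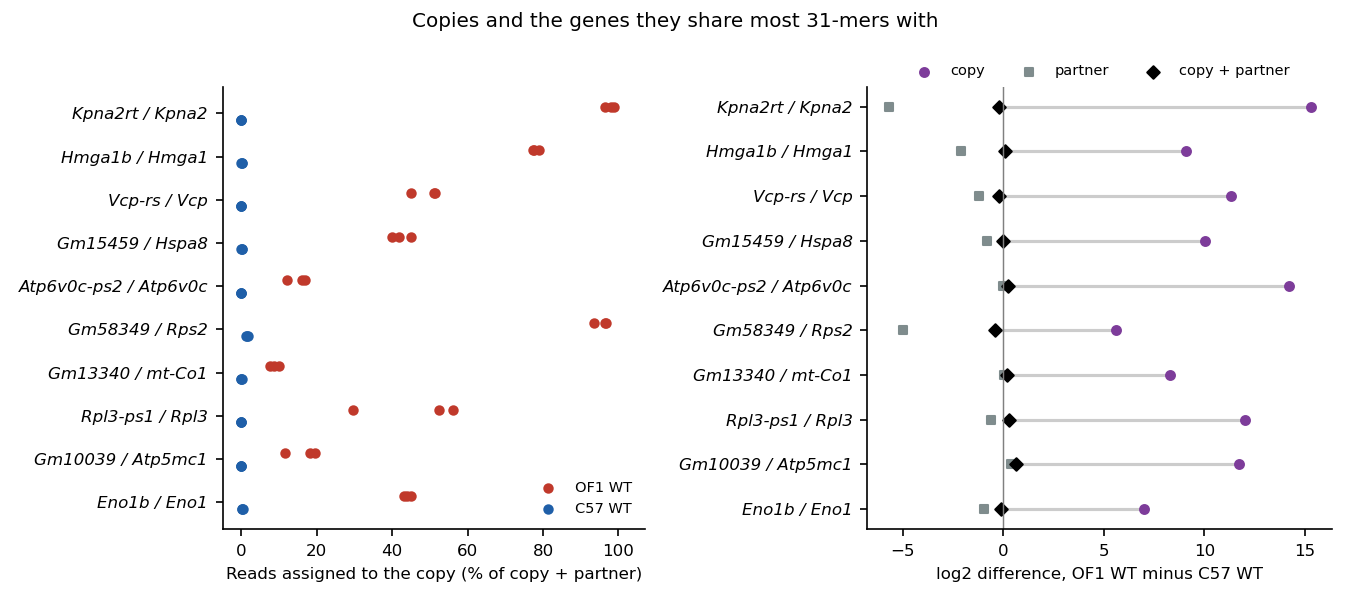
Left, reads assigned to the copy as a percentage of those of copy and partner, in 10 pairs, with 1 point per mouse and OF1 WT drawn above C57 WT. Right, log2 differences of the copy and of its partner as fitted, and the log2 ratio of the mean normalized counts of both together, in the same 10 pairs, which were picked after the values were seen. The fitted value of *Kpna2rt*, at 0 in C57 WT mice, depends on the prior count. The ratios for copy and partner together lie between -0.43 and 0.65.

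Over all copies, the same comparison was made after each was added to its partner, which gave 87 sums that hold 101 of the 112. Their median log2 difference was 0.21, and 67 lay within 1 of 0. A sum follows its more abundant member. Where the partner held most of the reads, as in *Gm13340* with *mt-Co1*, a sum near 0 says little about the copy. The origin of the reads of a copy was not tested. Of the 87 sums, 13 were called, 11 higher and 2 lower, and 28 had an unadjusted p below 0.05. Of the 13, 10 held no tested protein-coding gene, as in the sum of *Rpl34-ps1* and *Gm10154*. The other 3 were *Hddc3* with *Unc45a*, *Fam177a* with *Fam177a2* and *Rps18-ps6* with *Rps18-ps4*. Exons of *Rps18-ps6* overlap those of *Rps18-ps4*, so that sum does not join the copy to a gene elsewhere. *Hddc3*, a hydrolase gene beside *Unc45a*, had 3414, 3531 and 3830 in OF1 WT mice, against 391, 302 and 424 in C57 WT mice (log2 3.27), and the sum remained higher (log2 1.09, adjusted p = 0.00903). *Fam177a* had 2824, 2209 and 3121 in OF1 WT mice, against 6057, 6113 and 7237 in C57 WT mice (log2 -1.25), while *Fam177a2* was at 0 in all 6, so that this sum is *Fam177a* alone. Where copies shared a partner they were joined into 1 sum, so *Eno1b* and *Eno1* stand in a sum of 5 genes and *Gm58349* and *Rps2* in one of 3. In the table refitted with sums, 74 of 17930 genes and sums were called.

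Partners were tested in the table without sums. Of 85 partners tested, 48 had a negative difference, 6 were called lower and 7 higher, and their median was -0.03. For 11 of the 112, under 20% of the 31-mers lay in any 1 partner, and these were left as they are. Among them is *Gm8210*, with 1822, 4221 and 2771 in OF1 WT mice, against 3.48, 3.31 and 4.94 in C57 WT mice (log2 9.47). Not among these 11 are *Rps18-ps6* and *Hmgn2-ps*, copies of genes for a ribosomal protein and a nucleosome-binding protein, with log2 differences of 8.58 and 6.88. The sum of *Rps18-ps6* and *Rps18-ps4* remained higher (log2 6.95). The sum of *Hmgn2-ps*, *Gm6724* and *Hmgn2* was not called (log2 0.28, adjusted p = 0.695 in edgeR refitted to the sums).

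Nuclear copies of mitochondrial DNA formed a group of 6 called pseudogenes, all higher in OF1 WT. *Gm13340* (chromosome 2), which shares 45.1% of its 31-mers with *mt-Co1*, a subunit of cytochrome c oxidase, had 11999, 13710 and 12620 in OF1 WT mice, against 37.5, 49.2 and 37.0 in C57 WT mice (log2 8.28, SE 0.24, adjusted p = 4.54e-09), the smallest p of the comparison. *mt-Co1* itself had a log2 difference of 0.04 and the sum of both one of 0.17 (adjusted p = 0.889), so the copy held 7.68 to 9.87% of the reads of the pair in OF1 WT mice. The other 5, *Gm4076*, *Gm11408*, *Gm11410*, *Gm13339* and *Gm11512*, averaged 122 to 764 in OF1 WT mice and 0.253 to 2.05 in C57 WT mice.

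Copies that were lower in OF1 WT were few. *Gm3883* and *4933409K07Rik*, 2 sequences that are 91.3 to 92.4% shared, were both lower, with 0, 7.01 and 0 in OF1 WT mice, against 492, 260 and 736 in C57 WT mice, for *Gm3883*, and 56.6, 47.9 and 62.2 in OF1 WT mice, against 376, 540 and 637 in C57 WT mice, for *4933409K07Rik*. Their sum remained lower (log2 -4.12, adjusted p = 0.00308). *Gm16867*, whose exons overlap those of *Entpd4*, was at 0 in OF1 WT mice, against 231, 129 and 239 in C57 WT mice. In the MHC, the lncRNA *A930015D03Rik*, with 90.2% of its 31-mers in *H2-T22*, was higher (log2 2.21), whereas its sum with *H2-T22* was not (log2 -0.24, adjusted p = 0.860). Exons of *A930015D03Rik* overlap those of *H2-T22*, so that sum does not join the lncRNA to a gene elsewhere.

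The strain difference was set beside that of the *En1* hemizygous mice, which are other animals. Both contrasts came from the same fit of all 12 libraries. They share its filter, scaling and estimate of spread, so the hemizygous calls are not an independent repeat. There 167 genes were called (0.927%). Of the 185 wild-type calls, 182 had the same direction in hemizygous mice and 135 were called in it, and 0 were called in the opposite direction. Over all 18017 tested genes, 47.7% had the same direction. By class, 41 of 70 single-copy genes, 69 of 82 pseudogenes and 24 of 30 copies were called again. Mouse C572 of the C57-*En1*+/- group had *Xist* at 1330 and the Y-linked *Ddx3y* at 0, against at most 34.9 and at least 749 in the other 11 mice, although it is labelled male. Without it 183 of 185 had the same direction and 101 were called. Without SW22, the OF1-*En1*+/- mouse rich in dopaminergic transcripts, 182 had it and 97 were called, and the hemizygous calls fell to 108.

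Of the named single-copy protein-coding genes, 10 of 12 higher and 8 of 12 lower genes were called again. *Rbm45* had log2 4.20 in hemizygous mice (adjusted p = 3.69e-05), *Supt16* 2.58, *Wdfy1* 3.05, *Myo7a* -3.75 and *Gm26782* -3.61. Those not called again were *Hhipl1*, *Rpa3*, *Hjurp*, *Akr1e1*, *Zfp982* and *Nxpe4*, with adjusted p of 0.0741 to 0.650. *Zfp982* had log2 -1.63 there, against -5.86 in wild-type mice. *H2-Q4* was called again, with 130, 205 and 194 in OF1-*En1*+/- mice, against 0, 1.05 and 0 in C57-*En1*+/- mice (adjusted p = 0.00228). *H2-T5* was called there (adjusted p = 0.0287), with 58.1, 20.9 and 60.8 in OF1-*En1*+/- mice and 0 in all C57-*En1*+/- mice. *Mfhas1* (log2 0.26) and *H2-M5* (log2 1.07) were not called. *Kpna2* had -5.12 there, and *Kpna2rt* was again at 0 in the C57 mice. The 3 wild-type calls with the opposite sign were *Mmel1*, *mt-Ts1* and *Gm20463*. Of all tested genes, 0 passed the test of the difference between the strain effects by edgeR, where 1274 had an unadjusted p below 0.05, and 42 did by DESeq2.

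**Figure D5:**
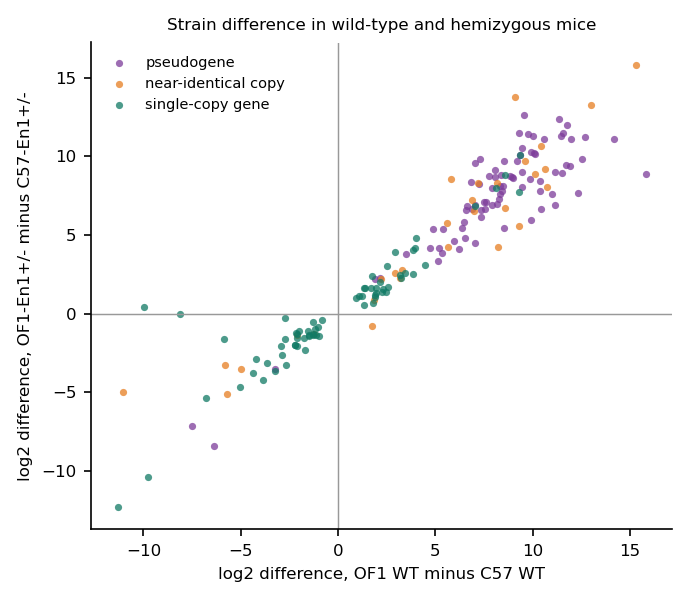
Log2 difference of each pseudogene, near-identical copy and single-copy gene called between the wild-type mice, in wild-type mice (x axis) and in hemizygous mice (y axis). Each point is 1 gene, and all but 2 of these 182 genes lie in the quadrants of equal direction.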

How the data were processed

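RNA of laser-microdissected, cresyl violet-stained tissue labelled SNpc was amplified (SMART-Seq v4) and tagmented (Nextera XT) without strand information. The authors ran Salmon against GENCODE mouse transcripts of GRCm39 and deposited estimated counts per transcript, with TPM and effective lengths. Deposited TPM values served only as weights for the mean effective lengths of the length offsets. Of 140790 transcripts, 139555 (99.1%) matched the GENCODE vM39 annotation, and their estimated counts were summed over 54193 genes and rounded. Unmatched transcripts held 0.604 to 0.734% of reads.

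All 12 libraries were fitted together in edgeR 4.0.16 (R 4.3.3) with TMM factors, a mean for each group and the robust quasi-likelihood test, on genes whose normalized count averaged 10 or more over all libraries. P-values were adjusted by Benjamini-Hochberg over all genes tested. DESeq2 1.42.0, limma 3.58.1 (voom with quality weights), other scalings and filters, marker covariates and leaving out mice were alternatives. Figures used Python 3.11.15 and matplotlib 3.10.9.

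Genes were named by a rule: the 12 single-copy protein-coding genes with the smallest p in each direction, the 4 lncRNAs, the 6 pseudogenes and 6 near-identical protein-coding copies with the smallest p (adjusted p below 0.05, no overlap, mean of at least 50), the genes the study names, and the listed C57BL/6 alleles. All other genes were picked after their values were seen, as were the sums of copies and partners. The members and lists were chosen with earlier results of these data known. Each library is 1 mouse, so p-values measure the spread between mice. Overlapping and antisense genes cannot be told apart without strand. A few genes that the rule names are not reported here.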

Additional observations from a re-analysis of the deposited data

Results flagged for a closer look

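*Gm20463*, an lncRNA that is a near-identical copy of *Rnf5* on chromosome 17, had strain differences of opposite sign in the 2 genotypes, of which only the wild-type one was called. It had normalized counts of 321, 421 and 352 in OF1 WT mice, against 125, 108 and 92.7 in C57 WT mice (log2 1.75, adjusted p = 0.0128, edgeR with Benjamini-Hochberg adjustment). In hemizygous mice it had 188, 167 and 223 in OF1-*En1*+/- mice, against 364, 355 and 261 in C57-*En1*+/- mice (log2 -0.76, adjusted p = 0.516). The gene was picked from the called and named genes by a rule. No mouse of one strain was to overlap the other in either genotype, with opposite signs. That separation is therefore a condition of the choice and not a further result. The 2 effects differed by 2.51 on the log2 scale (adjusted p = 0.614), so the difference did not pass the test. The sum of *Gm20463* and *Rnf5* had a log2 difference of 0.28 in wild-type mice.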

How the results depend on the processing

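The 185 calls between wild-type mice became 456 with DESeq2, 114 when only the wild-type libraries were fitted and 127 to 164 when 1 mouse was left out. The 70 single-copy calls became 252 with DESeq2, 115 with voom, 33 when only the wild-type libraries were fitted, 44 with marker covariates and 42 to 68 when 1 mouse was left out. The 112 calls among pseudogenes and copies became 188 with DESeq2 and 83 to 98 when 1 mouse was left out. The 167 hemizygous calls became 444 with DESeq2, and 108 to 120 without SW22 or without C572. The causes were not tested. Thinning every library to the smallest, chosen after seeing the data, left 163 calls, 65 of them single-copy. Called under every alternative were 20 of 70 single-copy genes, 43 of 82 pseudogenes and 18 of 30 copies. No gene that was named and called changed sign under these alternatives. Of the named genes that were not called, 6 did. With marker covariates the log2 difference was 0.38 for *Th*, 0.44 for *Lmx1b*, 1.03 for *En2*, 0.92 for *Aldh1a1* and 2.12 for *En1*, and with voom 0.27 for *En2*. With 1 mouse left out it ran from -5.44 to 0.62 (without C572S) for *Aldh1a1*, from -6.30 to 0.44 (without C572S) for *En1*, from -9.27 to 0 (without C572S) for *En2*, from -0.59 to 0.55 (without C5743) for *Lmx1b*, also positive without SW7 (0.46), and from -1.40 (without SWG) to 1.18 for *Nnt*, also negative without C5710 (-0.12). With length offsets it was -0.0256 for *Nnt*. No paired analysis was possible because replicate numbers were given in accession order and name samples only.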
